A study of Rattus norvegicus with 30 samples.

Results

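Cytosolic ribosomal proteins are described here across REF rat embryonic fibroblasts, a cell line, that either were never starved (control) or spent 2, 3, 4, 6, 8, 10, 12, 14 or 16 days without serum. The members are every row whose symbol has the form of a ribosomal protein of the large subunit (Rpl), the small subunit (Rps) or the P stalk (Rplp), without symbols marked as pseudogenes and without the S6 kinases. They were 81 of the 17353 symbols in the table, 49 of the large subunit with the P stalk and 32 of the small subunit. The 10 groups had 3 biological replicates apiece (30 libraries), the labels call all cells untransformed, and expression was given as FPKM, a fragment count divided by transcript length and by the library's mapped fragments.

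The ribosome has a large and a small subunit, and each is built from ribosomal RNA and a full set of these proteins, 1 copy of most of them per ribosome. Their mRNAs are abundant, and in vertebrates most begin with a 5′ terminal oligopyrimidine (TOP) tract, a C at the cap followed by a run of pyrimidines. The kinase complex mTORC1, which responds to growth factors in serum and to amino acids, controls the translation of TOP mRNAs, and the protein Larp1 binds their caps. Fibroblasts without serum leave the cell cycle and become quiescent, and the series asks how quiescence changes with the length of starvation.

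Windows of 30 bases around the annotated start (15 before it and 15 from it on) are shown for 8 members to which the results return, the sense strand being read 5′ to 3′ from RefSeq's GRCr8 assembly. Capitals mark a TOP tract, taken here as a C followed by at least 4 pyrimidines (C or T) that begins within 5 bases of the start. The tract was searched on the sense strand only, and a tract running into the window from further upstream is in capitals only from the C nearest the start. Rplp1 lies at chr8:71290858-71290887 on the minus strand, Rpl37a at chr9:81748076-81748105 on the plus strand, Rpl12 at chr3:36661925-36661954 on the plus strand and Rpl3 at chr7:113507976-113508005 on the minus strand. Rpl22 lies at chr5:168117946-168117975 and Rpl22l1 at chr2:113683181-113683210, both on the plus strand. Rps27 lies at chr2:177964592-177964621 on the minus strand and Rps27l at chr8:76443643-76443672 on the plus strand.
Rplp1: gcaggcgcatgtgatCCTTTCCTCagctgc
Rpl37a: gcatgcccgttgcgtCTCTTCCTCTTCggg
Rpl12: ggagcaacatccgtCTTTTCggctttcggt
Rpl3: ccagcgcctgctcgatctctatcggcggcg
Rpl22: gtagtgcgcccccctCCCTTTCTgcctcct
Rpl22l1: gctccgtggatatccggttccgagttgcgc
Rps27: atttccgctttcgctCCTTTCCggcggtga
Rps27l: gtttattcatttgtcattatttgtggtgtc

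Of the 8, the members Rpl3, Rpl22l1 and Rps27l held no such tract in this window, and Rpl22l1 and Rps27l differ in this from their paralogs Rpl22 and Rps27. A single annotated start with its window was found for 64 of the 81 members, and 40 of these 64 (62.5%) held a tract, against 5704 of 33469 (17.0%) of all windows in the table. A match depends on the annotated start, which can differ from the start used in these cells, and no match says only that these letters are not at this position.

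The files give no read counts, so depth is unknown, and no detection limit can be given. FPKM sums per library ran from 582501 to 785072, and short RNA genes took between 0 and 8.671% of them, the highest share being in day 4 replicate 3. Of 9 fibroblast markers, Col1a1, Col3a1, Vim and Pdgfrb were high, Col1a2 was listed at 0 in every library, and Dcn (at most 2.162 FPKM), Pdgfra (at most 1.517 FPKM), Thy1 and Fap were near 0. Summed over the 9, the level ran from 5931 to 18650 FPKM. Epithelial, endothelial and adipocyte markers summed to at most 0.6164 FPKM in any library. The 4 leukocyte markers summed to 4.035 to 4.618 FPKM in the controls and to at most 0.4321 FPKM at days 2, 4 and 16. Those of skeletal muscle (6 genes, mainly Myod1, Des and Tnnt2) summed to 314.5 to 337.4 FPKM in the controls, 131.0 to 168.0 at day 2, 58.29 to 68.18 at day 4 and 38.84 to 46.93 at day 16. The part of these differences in the results below was not tested.

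Of the members, 70 had a mean of at least 1 FPKM and were tested, 42 of the large and 28 of the small subunit. Of these, 69 were above 0 in every library, and 53 had a mean of at least 1000 FPKM. The members as a whole held 19.18% to 21.27% of the FPKM sum in the control libraries. A further 5 were listed at 0 in all 30 libraries: Rps6, the substrate of the S6 kinases, Rpl35a, Rpl39, Rpl39l and Rps4y2. Another 7 were above 0 in some libraries only. Rplp2, a P stalk protein, was above 0 in 1 library, at 9.842 FPKM in control replicate 1. Rps9, needed for accurate decoding, was above 0 in 3 libraries, with a highest value of 12.96 FPKM, also in control replicate 1. Rps19, a protein of the small subunit that is mutated in Diamond-Blackfan anemia, was above 0 in 22 libraries, with a mean of 1.129 and a highest value of 3.376 FPKM, and was tested. Rpl3l, Rpl7a, Rpl9 and Rps20 had means below 1 FPKM. Rps6, Rps9, Rpl7a and Rpl35a belong to every ribosome, so a value of 0 in this table is read only as listed at 0. Mammalian genomes carry many processed copies of ribosomal protein genes, and how reads shared with such copies were assigned is not given in the sources used here. The pseudogene row Rpl37a-ps1 reached 411.4 FPKM in day 4 replicate 1. In replicate 1 it was at 0.01057 FPKM at day 2, 0.06052 at day 3 and 40.81 or more in the other groups, and in replicates 2 and 3 it was at most 0.204 FPKM. All values below carry this uncertainty.

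Over the course, the mean of the members was near control at day 2 and lower from day 3 to day 8. It was within the control spread at days 12 and 14 and highest at day 16. Averaged over the 69 members above 0 in every library, log2(FPKM + 1) minus control was 0.085 ± 0.04 at day 2 (SD over libraries, n = 3, as for all values of this kind), -0.352 ± 0.237 at day 3, -0.457 ± 0.063 at day 4, -0.458 ± 0.169 at day 6 and -0.434 ± 0.095 at day 8. It was -0.148 ± 0.202 at day 10, 0.103 ± 0.054 at day 12, 0.107 ± 0.209 at day 14 and 0.204 ± 0.154 at day 16, with a spread of 0.109 between the control libraries. Days 4, 6 and 8 thus differed by less than their spread, and days 12, 14 and 16 by less than the spread of the more variable group. Replicate 1 was at -0.133 at day 14 and at 0.032 at day 16, whereas the control libraries ran from -0.124 to 0.077. Among the 9 starved groups, the mean level was lowest at day 4 for 27 members, at day 6 for 18, at day 8 for 17 and at day 3 for 6. Rps27l was lowest at day 16. The mean level was highest at day 16 for 45 members and at day 2 for 17. The members held 22.71% to 23.08% of the FPKM sum at day 2, 16.56% to 17.13% at day 4 and 24.25% to 26.88% at day 16. A moderated F test (limma, Benjamini-Hochberg adjustment over 8940 genes, threshold 0.05) found a difference among the starved groups for 60 of the 70 members, against 61.5% of all genes tested. FPKM is relative to all RNA in a library, so fewer cells with a transcript and less of it per cell cannot be told apart, nor can a change in total RNA per cell be seen.

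**Figure D1:**
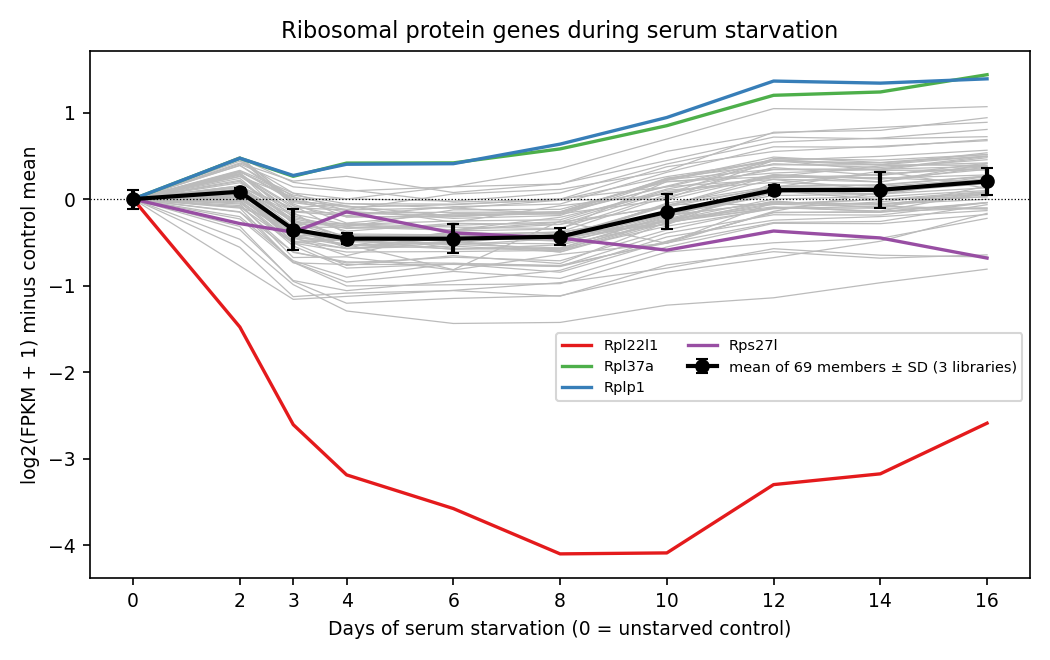
Mean log2(FPKM + 1) of each of the 69 members minus its control mean (y axis) against days of serum starvation (x axis, 0 for the unstarved control). Thin grey lines are single members, 4 members are coloured, and the black line is the mean of the members with the SD over 3 libraries. The black line lies at -0.457 at day 4 and 0.204 at day 16, Rpl22l1 runs far below it, and Rplp1 and Rpl37a run above it.

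The first comparison, day 2 against control, asks what changed in the first days without serum, when serum itself and the exit from the cycle both differ between the groups. Most members moved little. limma called 15 of 70 higher, against 30% of all genes, and 5 of 70 lower, against 30.7% of all genes. The median log2 change of the members was 0.127 (1.09-fold) and that of all genes 4.36e-05. By subunit, 10 of 42 large and 5 of 28 small subunit members were called higher, and 4 large and 1 small subunit members lower. The number called higher was 8 without control replicate 2 and 25 without all replicate 1 libraries, and the number called lower was 8 with the replicate number as a block.

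The largest fall by day 2 was that of Rpl22l1, the paralog of the large subunit protein Rpl22. Rpl22l1 stood at 479.0, 468.1 and 581.0 FPKM in the controls and at 168.7, 188.8 and 187.2 FPKM at day 2. No library of one group reached the other, and the change was -1.48 ± 0.25 on the log2 scale (SE, adjusted p = 1.19e-05, limma), 2.79-fold lower. Rps2, a small subunit protein at the mRNA entry side, was at 4677, 3665 and 3785 FPKM in the controls and 2572, 2261 and 2243 FPKM at day 2. This was 1.71-fold lower (log2 -0.77 ± 0.10, adjusted p = 3.3e-07), again with no overlap. Rpl18 of the large subunit fell from 1966, 1861 and 1956 to 1360, 1252 and 1318 FPKM (log2 -0.56 ± 0.16, adjusted p = 0.00475). Rpl3, which lies near the peptidyl transferase centre, was at 1172, 1081 and 1183 FPKM in the controls and at 903.1, 926.5 and 927.9 FPKM at day 2 (log2 -0.32 ± 0.09, adjusted p = 0.00308). Rpl10a, the fifth, was at 698.4, 504.6 and 474.6 FPKM in the controls and 508.1, 366.3 and 341.8 FPKM at day 2. These groups overlapped, and the adjusted p of 0.0361 became 0.219 without control replicate 1, 0.113 without day 2 replicate 2 and 0.158 without day 2 replicate 3. None of the 5 rescalings tried kept this call, the adjusted p being 0.1 to 0.171.

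The largest rises by day 2 were smaller than that fall of Rpl22l1. Rps12, a small subunit protein, was at 2318, 1696 and 2120 FPKM in the controls and 2689, 2846 and 2926 FPKM at day 2 (log2 0.48 ± 0.11, adjusted p = 0.000508). Rpl10, which joins the large subunit late in its assembly, rose from 2000, 1744 and 1942 to 2531, 2602 and 2652 FPKM (log2 0.46 ± 0.11, adjusted p = 0.000689). In both genes every day 2 library lay above every control library, though Rps12 did not pass with quantile normalization (adjusted p = 0.105). Rps3, a small subunit protein also known in DNA repair, was at 1757, 1907 and 1962 FPKM in the controls and 1398, 1500 and 1499 FPKM at day 2. The groups did not overlap. The change did not pass (adjusted p = 0.142), but did with the replicate block (0.00648), an equal FPKM sum (0.0357) and quantile normalization (0.00381). It also passed with short RNA genes left out (0.0488), without replicate 1 (0.000346) and with the compared groups fitted alone (0.00723).

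Between day 2 and day 4 the members fell together. limma called 50 of 70 lower, against 11.5% of all genes, and 0 higher, against 12.8% of all genes. At an unadjusted p under 0.05 the counts were 58 lower and 0 higher, and 69 of the 70 changes were negative. The median log2 change was -0.567 (0.675-fold) and that of all genes 0.0119. Of the large subunit, 32 of 42 fell with a median of -0.588, and of the small subunit 18 of 28 with a median of -0.517. Day 4 was chosen because an earlier report on these data showed it as a low point. The size of this fall, and that of the rise from day 4 to day 16, are thus not independent of that choice. The number lower lay between 40 and 44 when any 1 of the 6 libraries was left out.

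Rpl22l1 again fell furthest, to 46.72, 61.02 and 57.72 FPKM at day 4, 3.27-fold below day 2 (log2 -1.71 ± 0.25, adjusted p = 7.03e-06). Rpl12, a large subunit protein at the base of the P stalk, went from 1350, 1435 and 1419 FPKM at day 2 to 761.2, 754.2 and 736.7 FPKM at day 4 (log2 -0.90 ± 0.10, adjusted p = 1.29e-07). Rpl3 went on falling, to 494.5, 518.2 and 477.6 FPKM (log2 -0.89 ± 0.09, adjusted p = 1.78e-08). In each of the 3 genes the groups did not overlap. Rps14, a small subunit protein, went from 3720, 3204 and 3165 to 2288, 2345 and 2441 FPKM (log2 -0.51 ± 0.12, adjusted p = 0.00196, or 0.0866 with quantile normalization). Rps27a, made as a fusion with ubiquitin, went from 788.0, 585.6 and 596.2 to 519.4, 387.8 and 370.5 FPKM (log2 -0.63 ± 0.13, adjusted p = 0.000874). Rps3 fell to 814.6, 958.2 and 932.0 FPKM (log2 -0.70 ± 0.21, adjusted p = 0.0132), with an adjusted p of 0.0536 without day 4 replicate 1.

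From day 4 to day 16 nearly the whole set rose. limma called 60 of 70 higher, against 20.4% of all genes, and 1 lower, against 21.2% of all genes. The median log2 change was 0.694 (1.62-fold), and that of all genes -0.0104. Of the large subunit 37 of 42 rose, and of the small subunit 23 of 28. This comparison and the former share the day 4 libraries, so a low day 4 value favours both a called fall and a called rise. The share of all genes with both calls was not counted. The choice of day 4 as a low point bears on the size of this rise too. Of the 50 members called lower by day 4, 49 were called higher by day 16. The exception by this call was Rpl22l1 (log2 0.60 ± 0.25, adjusted p = 0.0539), though its day 4 and day 16 libraries did not overlap. It passed with upper quartile rescaling (0.0246), quantile normalization (0.025), an equal FPKM sum (0.0452) and an equal sum of the genes outside the set (0.012). It also passed without replicate 1 (0.0171) and with the compared groups fitted alone (0.031). Among the 49, Rpl10a and Rpl11 overlapped between the groups and lost the call with an equal FPKM sum (0.208 and 0.249).

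Rpl28 of the large subunit rose most, from 176.3, 156.0 and 139.0 FPKM at day 4 to 341.6, 300.8 and 348.8 FPKM at day 16 (log2 1.07 ± 0.14, adjusted p = 6.63e-07). Rps28, a small subunit protein at the mRNA exit, rose from 1691, 1785 and 1547 to 3190, 3229 and 4173 FPKM (log2 1.07 ± 0.13, adjusted p = 3.01e-07). Its earlier change, from 2179, 2215 and 1870 FPKM at day 2, did not pass (adjusted p = 0.0823), but did with the replicate block (0.0385), with upper quartile rescaling (0.027) and with an equal sum of the other genes (0.015). Rpl3 rose from its day 4 values to 979.4, 1088 and 998.3 FPKM (log2 1.04 ± 0.09, adjusted p = 4.79e-10). All day 16 libraries were above all day 4 libraries for these genes. Rpl12 rose to 1164, 1450 and 1273 FPKM (log2 0.78 ± 0.10, adjusted p = 5.6e-07). Rpl13a, which is known outside the ribosome as a translational silencer, rose from 2754, 2485 and 2516 to 4651, 4685 and 4931 FPKM (log2 0.88 ± 0.10, adjusted p = 9.31e-08). Rps14 rose to 3472, 3959 and 4038 FPKM (log2 0.69 ± 0.12, adjusted p = 3.23e-05).

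**Figure D2:**
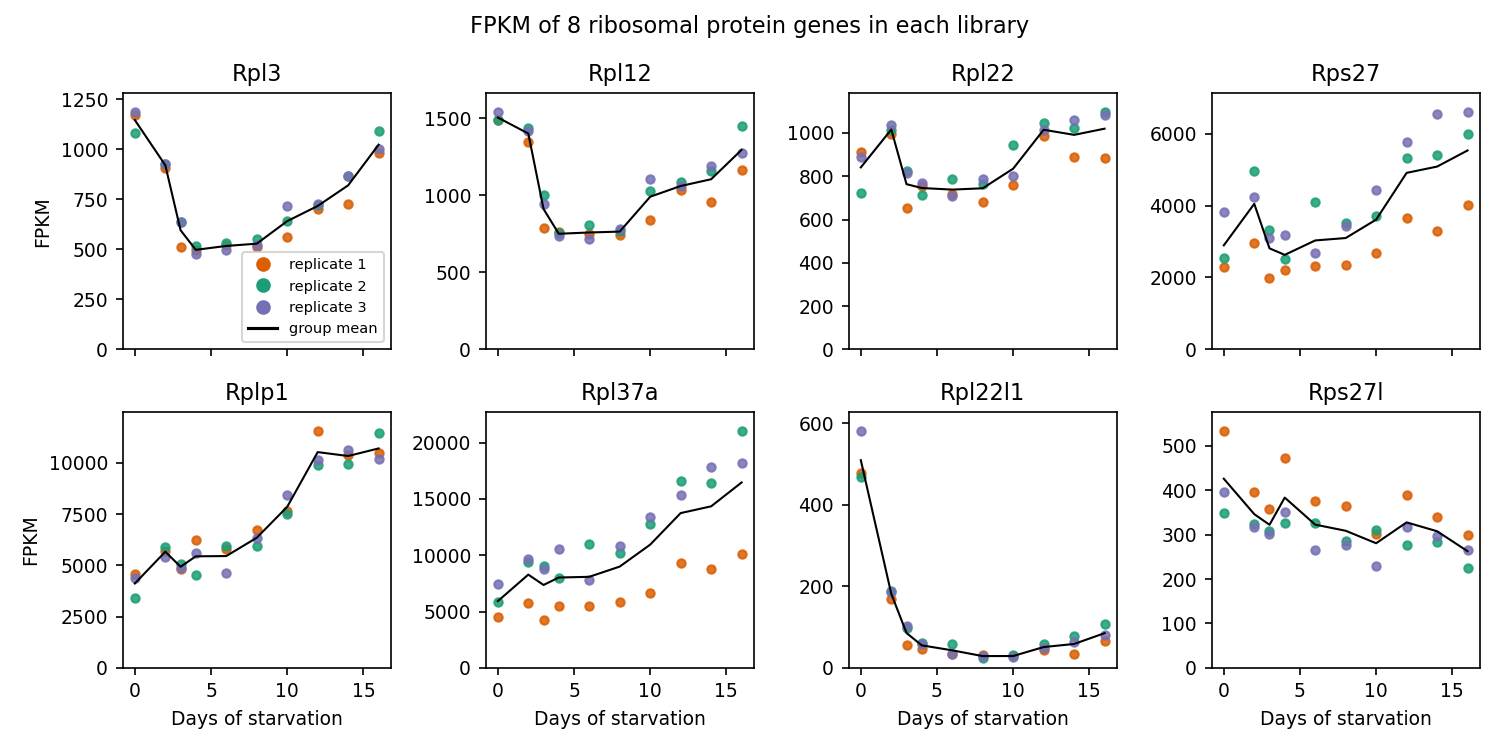
FPKM of 8 members (1 panel each, y axis from 0) in each library against days of starvation (x axis, 0 for control), with points coloured by replicate number and the group mean as a line. Rpl3 falls from between 1081 and 1183 in the controls to between 477.6 and 518.2 at day 4 and returns to between 979.4 and 1088 at day 16, whereas Rplp1 lies between 3400 and 4564 in the controls and between 10190 and 11430 at day 16. The replicate 1 points of Rpl37a and Rps27 lie under the others.

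Against control, most members did not pass at day 16. limma called 22 of 70 members higher, against 32.4% of all genes, and 5 of 70 lower, against 35.0% of all genes. The median log2 change was 0.225 (1.17-fold) and that of all genes -0.0234. Of the 49 members that fell and rose again, 14 were higher than control at day 16, 3 were lower, and 32 did not pass. This split was not counted for all genes. The number higher was 38 without the replicate 1 libraries. Rpl3 (log2 -0.16 ± 0.09, adjusted p = 0.0999) and Rpl12 (log2 -0.22 ± 0.10, adjusted p = 0.0522) did not pass but were lower with the replicate block, with adjusted p-values of 0.0487 and 0.0129. Both were also lower with an equal FPKM sum (0.00521 and 0.000439), quantile normalization (0.0245 and 6.49e-05) and short RNA genes left out (0.00198 and 0.000127). Rpl10, at 2039, 2418 and 2191 FPKM at day 16, had an adjusted p of 0.0665. It passed with the block (0.0316), upper quartile rescaling (0.000971), an equal FPKM sum (0.0414) and without replicate 1 (0.00781). Rpl36a, a large subunit protein at the exit site for transfer RNA, was at 692.7, 720.0 and 757.1 FPKM in the controls and 769.4, 853.2 and 1200.0 FPKM at day 16, and did not pass (adjusted p = 0.152), but did with the block (0.0284), with upper quartile rescaling (0.0374) and without replicate 1 (0.048).

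The members furthest above control at day 16 were Rpl37a, Rplp1, Rps28 and Rps27. Rpl37a, a small zinc-binding protein of the large subunit, was at 4537, 5828 and 7401 FPKM in the controls and 10150, 21030 and 18200 FPKM at day 16, 2.71-fold higher (log2 1.44 ± 0.38, adjusted p = 0.00164, or 0.0922 with quantile normalization). Its replicate 1 library was the lowest in all 10 groups, yet every day 16 library exceeded every control. At day 2 Rpl37a stood at 5741, 9417 and 9675 FPKM, which did not pass (adjusted p = 0.288), but did with the replicate block (0.00218) and without replicate 1 (0.00943). Rps28 was at 1820, 1512 and 1694 FPKM in the controls, under all 3 day 16 values given above (log2 1.07 ± 0.13, adjusted p = 7.97e-08). Those furthest below control were Rpl22l1, Rpl10a, Rps27l, Rps2 and Rpl18. Rpl10a was at 371.1, 267.9 and 311.4 FPKM at day 16 (log2 -0.81 ± 0.19, adjusted p = 0.000515). Rps2 was at 2639, 2523 and 2427 FPKM (log2 -0.67 ± 0.10, adjusted p = 2.24e-06) and Rpl18 at 1045, 1444 and 1241 FPKM (log2 -0.64 ± 0.16, adjusted p = 0.00118). None of these 3 genes overlapped with its control values.

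The P stalk, which recruits the translation factors that hydrolyse GTP, is built from Rplp0 and dimers of Rplp1 and Rplp2. Rplp2 was listed at 0 in 29 libraries and gives no comparison. Rplp0 was at 2887, 2804 and 2758 FPKM in the controls, 3458, 3559 and 3486 at day 2, 2880, 2542 and 2728 at day 4, and 3390, 4057 and 3647 at day 16. It rose by day 2 (log2 0.31 ± 0.10, adjusted p = 0.00961), fell by day 4 (log2 -0.37 ± 0.10, adjusted p = 0.00857) and rose by day 16 (log2 0.44 ± 0.10, adjusted p = 0.00097). With quantile normalization the first 2 of these did not pass, at adjusted p-values of 0.48 and 0.373. Rplp1 was at 4564, 3400 and 4375 FPKM in the controls, 5700, 5888 and 5405 at day 2, 6210, 4515 and 5590 at day 4, and 10480, 11430 and 10190 at day 16. The day 4 libraries of Rplp1 spanned those of day 2 (log2 -0.07 ± 0.12, adjusted p = 0.747). By day 16 the gene was 2.62-fold above control with no overlap (log2 1.39 ± 0.12, adjusted p = 2.01e-10). Rplp0 was also above control at day 16, 1.31-fold with no overlap (log2 0.39 ± 0.10, adjusted p = 0.00154). Whether the 2 stalk genes differed from each other was not tested.

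Rpl5, Rpl11 and Rpl23 of the large subunit are known, outside the ribosome, to bind the p53 ligase Mdm2. Rpl5 was at 813.8, 783.6 and 819.5 FPKM in the controls, 874.3, 883.6 and 931.5 at day 2, 560.7, 527.8 and 539.5 at day 4, and 807.4, 913.5 and 795.8 at day 16. It fell by day 4 (log2 -0.72 ± 0.08, adjusted p = 2.12e-07) and rose by day 16 (log2 0.62 ± 0.08, adjusted p = 9.59e-07). At day 16 it did not pass against control (log2 0.06 ± 0.08, adjusted p = 0.565). Rpl11 was at 812.5, 503.4 and 584.6 FPKM in the controls, 745.0, 566.5 and 560.4 at day 2, 537.8, 416.3 and 403.3 at day 4, and 647.1, 517.1 and 577.5 at day 16. Rpl23 was at 2179, 2148 and 2726 FPKM in the controls, 2183, 2667 and 2981 at day 2, 1475, 1676 and 2012 at day 4, and 2207, 3234 and 2955 at day 16. Both fell by day 4, with adjusted p-values of 0.0189 for Rpl11 and 0.046 for Rpl23, and rose by day 16, with 0.0431 and 0.0124. Those of the fall rose to at most 0.134 and 0.169 when 1 library was left out (day 2 replicate 1 and day 2 replicate 3), and those of the rise to at most 0.169 and 0.0666 (day 4 replicate 3 and day 16 replicate 2). Rpl11 also lost both calls with an equal FPKM sum per library, at adjusted p-values of 0.0919 and 0.249.

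Rpl22 and Rpl22l1, paralogs of the large subunit, differed in level most in the starved libraries. Rpl22 was at 912.1, 720.5 and 890.4 FPKM in the controls, 994.2, 1014 and 1038 at day 2, 752.7, 715.1 and 768.9 at day 4, and 882.6, 1095 and 1082 at day 16. It fell by day 4 (log2 -0.45 ± 0.11, adjusted p = 0.00262) and rose by day 16 (log2 0.44 ± 0.11, adjusted p = 0.00148). Against control, Rpl22 was higher at day 16 (log2 0.28 ± 0.11, adjusted p = 0.0236), though the groups overlapped. That call was lost without control replicate 2 (adjusted p = 0.183). Rpl22l1 was at 66.46, 107.8 and 80.98 FPKM at day 16, 6.02-fold below control (log2 -2.59 ± 0.25, adjusted p = 8.59e-10). Read per length, Rpl22l1 amounted to 52.5%, 65.0% and 65.3% of Rpl22 in the controls and to 17.0%, 18.6% and 18.0% at day 2. The share was 6.21%, 8.53% and 7.51% at day 4, 3.84%, 3.41% and 3.2% at day 10, and 7.53%, 9.84% and 7.48% at day 16. The highest starved library was thus far under the lowest control.

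Rps27 and Rps27l are paralogs of the small subunit, the latter known as a target of p53. Rps27 was at 2303, 2540 and 3830 FPKM in the controls, 2967, 4947 and 4226 at day 2, 2193, 2511 and 3177 at day 4, and 4006, 6002 and 6589 at day 16. It rose between day 4 and day 16 (log2 1.06 ± 0.29, adjusted p = 0.00437) and was above control at day 16 (log2 0.94 ± 0.29, adjusted p = 0.00584). Its change at day 2 did not pass (adjusted p = 0.147), but did with the replicate block (0.00374) and without replicate 1 (0.0263). Its change from day 2 to day 4 did not pass either (adjusted p = 0.137), but did with the block (0.00157), without replicate 1 (0.0194) and with an equal sum of the other genes (0.0323). Rps27l was at 533.4, 347.6 and 396.9 FPKM in the controls, 396.8, 324.5 and 316.9 at day 2, 471.7, 326.9 and 351.5 at day 4, and 298.7, 224.8 and 264.5 at day 16. It was the 1 member that fell from day 4 to day 16 (log2 -0.53 ± 0.17, adjusted p = 0.0142), a call lost without day 4 replicate 1 (0.102), without day 16 replicate 2 (0.0833) and with libraries rescaled to an equal sum of the genes outside the set (0.0905). Against control, Rps27l was lower at day 16 (log2 -0.68 ± 0.17, adjusted p = 0.00114), and at day 2 only with the block (0.0128, against 0.159). As a share of Rps27 it was 23.2%, 13.7% and 10.4% in the controls and 7.46%, 3.75% and 4.01% at day 16, replicate 1 being the highest in both groups.

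**Figure D3:**
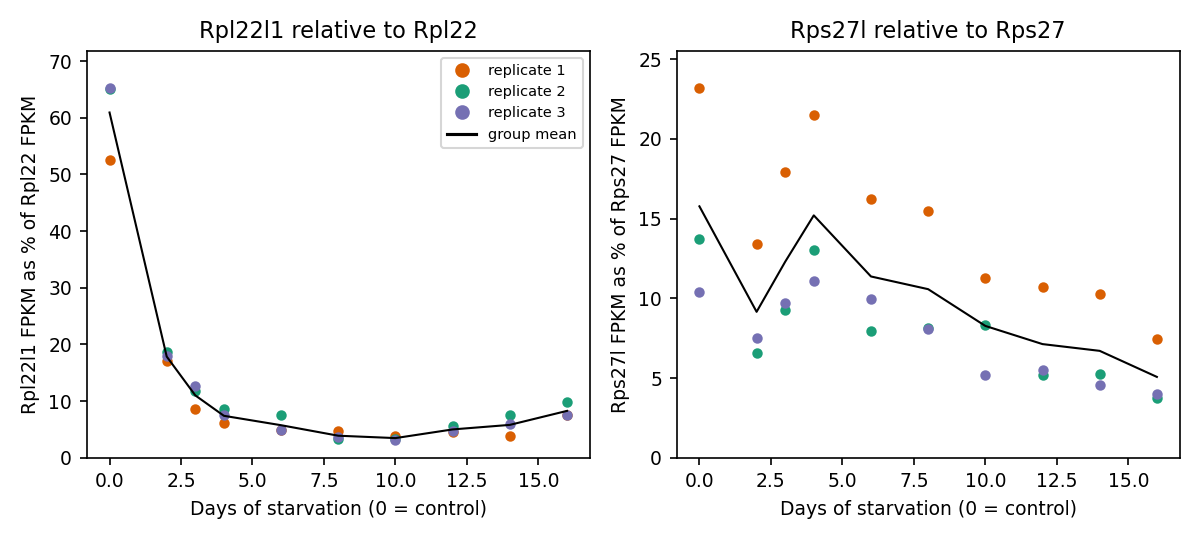
FPKM of Rpl22l1 as a percentage of Rpl22 (left) and of Rps27l as a percentage of Rps27 (right) in each library, against days of starvation (0 for control), with points coloured by replicate number and the group mean as a line. On the left, the 3 controls lie between 52.5% and 65.3% and the day 10 libraries between 3.2% and 3.84%. On the right, the replicate 1 points lie above the others.

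Replicate 1 libraries stood apart for many members. Replicate 1 was the lowest of the 3 in all 10 groups for 10 members, and in at least 8 groups for 25. It was the highest in all 10 groups for 1 member, Rpl10a, and in at least 8 groups for 6. The median ratio of replicate 1 to the mean of the others ran from 0.383 for Rpl37 to 1.35 for Rpl10a, with a median over members of 0.92. With the replicate number as a block, the counts were 22 higher and 8 lower at day 2 and 62 lower and 0 higher at day 4. For day 16 against control they were 30 higher and 7 lower. The shares of all genes given here come from the fit without the block, so these counts have none beside them.

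Among proteins of or near the ribosome that the symbol form leaves out are Rpsa, Fau, Rack1, Rpl36al and the Rps19-binding protein Rps19bp1. The 3 genes Rpsa, Fau and Rack1 fell by day 4 and rose from day 4 to day 16, and Rpl36al and Rps19bp1 did not pass in either comparison. Of the 6 such genes tested, 3 were called lower by day 4, against 11.5% of all genes, and 4 higher from day 4 to day 16, against 20.4%. The gene not named here thus rose without a called fall. Rack1, a scaffold on the small subunit, had means of 1213 ± 163.9 FPKM at day 2, 741.3 ± 102.7 at day 4 and 1105 ± 85.08 at day 16 (log2 -0.71, adjusted p = 4.02e-05, then 0.58, adjusted p = 0.000239). Of 19 other genes with TOP mRNAs, 8 rose and 7 fell at day 2, against 30% and 30.7% of all genes. At day 4, 13 fell and 0 rose, against 11.5% and 12.8%. From day 4 to day 16, 14 rose and 2 fell, against 20.4% and 21.2%. At day 16, 8 were higher and 6 lower than in control, against 32.4% and 35.0% of all genes. At an unadjusted p under 0.05, limma also had 0 of the 19 higher at day 4. The median of the 19 was -0.444 at day 4 and 0.476 from day 4 to day 16. The elongation factor Eef2 had means of 5365 ± 427.7 FPKM at day 2, 3046 ± 155.3 at day 4 and 4350 ± 457.1 at day 16, with adjusted p-values of 1.73e-05 and 0.00182. Hnrnpa1, an RNA-binding protein, had lower means at day 2 and day 16 than in control, with 476.4 ± 46.96 FPKM in control, 137.3 ± 8.84 at day 2 and 86.16 ± 6.034 at day 16. Its day 4 level is not reported here. Within the members, the median at day 4 was -0.585 for the 35 tested members with a tract at the start and -0.511 for the 20 without one, and from day 4 to day 16 it was 0.701 and 0.672. These medians are given as a description, with no test.

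Genes that make ribosomes, and the ribosomal proteins of mitochondria, were mostly lower than control at both day 2 and day 16. Of 26 ribosome biogenesis genes tested, 23 fell and 0 rose by day 2 (0 also at an unadjusted p under 0.05), with a median of -0.69, where 30.7% of all genes were called lower. At day 16, 21 were lower than control and 0 higher (0 also at an unadjusted p under 0.05), with a median of -0.575, where 35.0% of all genes were called lower. Between day 2 and day 4, 3 fell, with a median of 0.099 and 11.5% of all genes called lower. From day 4 to day 16, 6 rose and 5 fell, with a median of 0.054, against 20.4% and 21.2% of all genes. Fbl, the methylase of ribosomal RNA, had means of 133.6 ± 17.12 FPKM in control, 44.72 ± 2.329 at day 2, 49.1 ± 4.729 at day 4 and 36.88 ± 2.366 at day 16. Ncl, nucleolin, went from 434.1 ± 34.28 FPKM to 216.3 ± 16.32 at day 2, 197.7 ± 5.193 at day 4 and 219.1 ± 6.184 at day 16. Of 65 mitochondrial ribosomal proteins, 52 fell and 1 rose by day 2 (median -0.517), 4 fell and 0 rose at day 4 (median 0.014, with 3 higher at an unadjusted p under 0.05), and 11 rose and 3 fell from day 4 to day 16 (median 0.068). At day 16, 48 of the 65 were lower than control and 2 higher, against 35.0% and 32.4% of all genes. The difference between these lists and the cytosolic set was not tested.

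**Figure D4:**
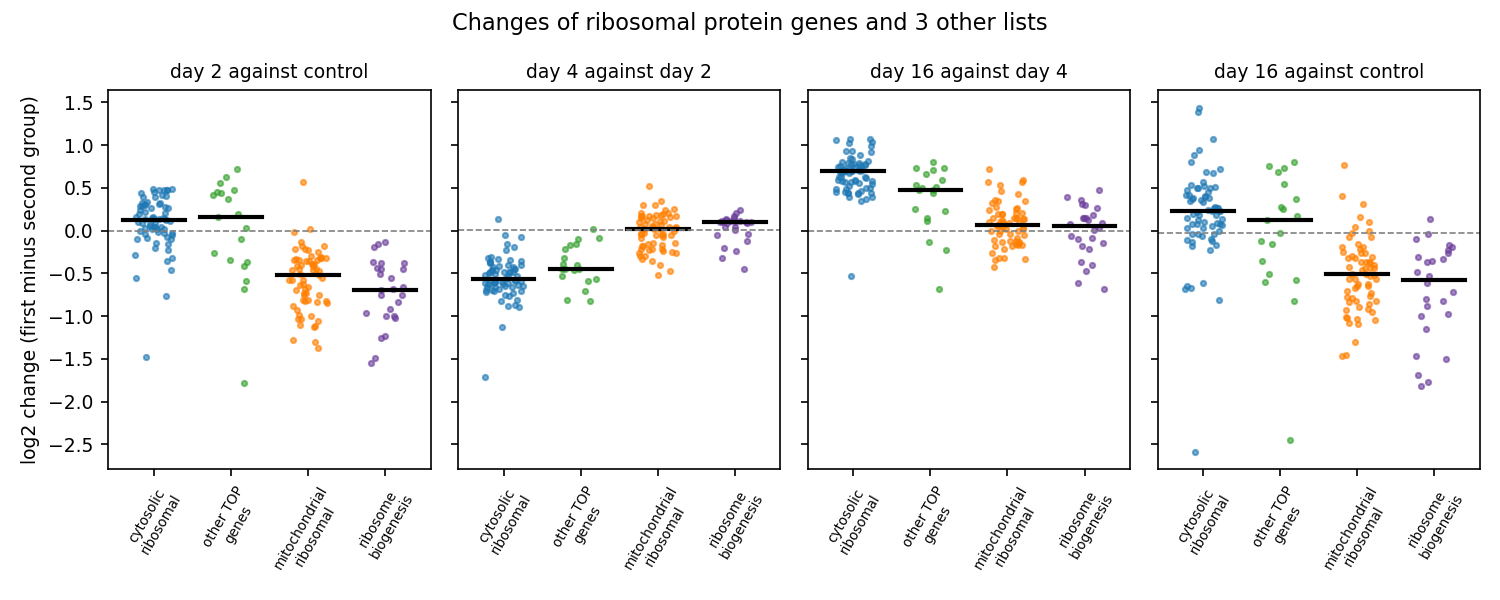
Log2 change (y axis) of each tested gene of 4 lists in 4 comparisons (panels), with black bars at each list's median and a dashed line at the median of all genes. The cytosolic set has its median at 0.127, -0.567, 0.694 and 0.225 from left to right, and the mitochondrial set at -0.517, 0.014, 0.068 and -0.513.

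Of 17 tested genes of the mTORC1 pathway, 6 rose and 3 fell by day 2, 1 rose and 3 fell by day 4, and 1 rose and 4 fell from day 4 to day 16. By day 2, 30% of all genes were called higher and 30.7% lower, and the median log2 change of the 17 was 0.003. By day 4 the shares of all genes were 12.8% higher and 11.5% lower. From day 4 to day 16 they were 20.4% and 21.2%. Whether the list differed from all genes was not tested, and the genes named below are those called. The 6 higher at day 2 were Ddit4, Sesn1, Sesn2, Tsc2 and Akt1s1, all known to restrain mTORC1, and Pdcd4, an inhibitor of translation. The 3 lower were Tbc1d7, a subunit of the complex with Tsc2 (log2 -0.46, adjusted p = 0.000992), Rheb, the GTPase that activates mTORC1 (log2 -0.26, adjusted p = 0.00138), and Myc. Ddit4 went from 2.061 ± 0.5301 FPKM to 12.23 ± 1.744 (log2 2.12, adjusted p = 1.63e-11), Sesn1 from 2.752 to 9.974 (adjusted p = 2.53e-11) and Sesn2 from 7.633 to 22.7 (adjusted p = 5.26e-12). Tsc2 (log2 0.41, adjusted p = 0.00184) and Akt1s1 (log2 0.28, adjusted p = 0.0192) changed less. Rheb had means of 103.5 ± 3.001 FPKM at day 2, 135.6 ± 7.275 at day 4 and 109.9 ± 6.987 at day 16. It thus rose at day 4 (log2 0.39, adjusted p = 7.95e-05) and fell by day 16 (log2 -0.30, adjusted p = 0.000668). Eif4ebp1, the repressor of cap-dependent translation that mTORC1 inactivates, went from 202.0 ± 8.975 at day 2 to 142.0 ± 3.251 at day 4 and 97.0 ± 14.34 FPKM at day 16. Pathway activity is set by phosphorylation, which was not measured.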

How the data were processed

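Total RNA of 30 libraries was sequenced. The deposited FPKM values were made by the authors with Cufflinks and Cuffnorm 2.2.1 after TopHat2 2.1.1 on rn6, per the submitters' processing notes. Annotation, library scaling and any filter are not given in the sources used here. Genes with a mean of at least 1 FPKM (8940) were fitted as log2(FPKM + 1) with limma 3.58.1 in R 4.3.3. The fit held all 10 group means, empirical Bayes followed the mean-variance trend, every test was two-sided, and Benjamini-Hochberg adjustment ran over all 8940 genes. Folds come from log2(FPKM + 1). The method was tried on simulated data with independent noise in each library. Those data held no shared replicate effect such as that of replicate 1, so the trial does not cover it. The members, day 4 and the gene lists were chosen with earlier results of these data known. Named members are the 4 largest called rises and falls per comparison with a mean of at least 5 FPKM, plus a fixed list of roles and paralog pairs. Some genes that met this rule or stand in the lists are not reported here.

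Deviations of same-numbered libraries from their group means correlated across genes, for replicates 1, 2 and 3, at 0.5915, 0.209 and 0.1879 (day 2 and control), 0.6533, 0.1097 and 0.2484 (days 4 and 2), 0.4875, -0.0559 and 0.1461 (days 16 and 4) and 0.44, 0.1349 and 0.3567 (day 16 and control). The numbers were taken to pair the samples where all 3 exceeded 0.1, on the data alone. A differently numbered library correlated better for replicate 3 of day 2 and control (0.2907). The same held for replicates 2 and 3 of days 4 and 2 (0.3069 and 0.316) and of days 16 and 4 (0.278 and 0.2173). Pairing by number was thus not shown for replicates 2 and 3 there, and results with the block carry this limit. Alternatives were other pseudocounts, filters, scalings, the replicate block and left-out libraries. RefSeq promoter windows (GRCr8) were matched by symbol: 64 members had 1 window, 1 had more and 16 had none.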

Additional observations from a re-analysis of the deposited data

How the results depend on the processing

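Scaling moved the counts of smaller changes most. The shares of all genes given above come from the unchanged fit, so counts under other settings have none beside them. Upper quartile rescaling also moved the median of all genes, to 0.0924 at day 2 and 0.0815 for day 16 against control. Members higher at day 2 (15) became 24 with upper quartile rescaling and 25 without replicate 1, and those lower (5) became 10 with quantile normalization and 8 with the replicate block. The split at day 2 was 24 higher and 4 lower with upper quartile rescaling and 10 and 10 with quantile normalization. For day 16 against control, members higher (22) became 38 with upper quartile rescaling and 38 without replicate 1. Those lower (5) became 8 with an equal FPKM sum, 12 with quantile normalization (beside 20 higher) and 8 with short RNA genes left out. The 1 member lower from day 4 to day 16 became 0 with an equal sum of the other genes. Rpl13a at day 2 turned to -0.026 (adjusted p = 0.865) with quantile normalization. The cause of these was not tested. With 1 library left out, the ranges were 8 to 16 higher and 4 to 6 lower at day 2, 0 to 0 higher and 40 to 44 lower at day 4, 51 to 61 higher and 0 to 1 lower from day 4 to day 16, and 16 to 27 higher and 5 to 6 lower for day 16 against control. For the F test the range was 58 to 63. Medians of the 69 members kept their sign under the scalings tried, between -0.644 and -0.362 at day 4 and between 0.459 and 0.772 from day 4 to day 16. The median of all genes moved furthest to -0.117, from day 4 to day 16 with short RNA genes left out. From day 4 to day 16, where numbers did not meet the rule for pairing, the replicate block gave 68 higher and 1 lower. It also called Rpl22l1 (adjusted p = 0.0148). The block made the F test call 69, and it changed no call of a named member other than those given. Unknown depth leaves low members such as Rps19 without an error from counting.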
